A study of Mus musculus with 4 samples.

Results

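Genes for epithelial antimicrobial proteins and for acute phase proteins were followed through the neonatal mouse small intestine. The set held 8 of the 32227 genes in the feature lists, and all 8 were found: Reg3b, Reg3g, Saa1, Saa2, Lypd8, Defb37, Leap2 and Lcn2. The 8 genes were chosen by their measured levels in these same libraries, including the single ileal library in which some of them were raised, so their levels are given as a description with no test. The files carry them under the Ensembl identifiers ENSMUSG00000071356, ENSMUSG00000030017, ENSMUSG00000074115, ENSMUSG00000057465, ENSMUSG00000013643, ENSMUSG00000053695, ENSMUSG00000036216 and ENSMUSG00000026822 in that order. The samples were epithelium of the ileum and of the jejunum from wild-type (WT) mice at postnatal day 6, with 2 libraries per region. The labels name no treatment and no strain. By the labels, the ileum and jejunum of replicate 1 came from 1 mouse, given as male and batch 1, and those of replicate 2 from another, given as female and batch 2. Mouse, labelled sex and batch therefore cannot be told apart.

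Single cells were captured by PIPseq, and the deposited matrices count unique molecular identifiers (UMIs, each standing for 1 captured RNA molecule) per gene and cell. In all, 36202 cells were called with 378810858 UMIs, and 30521 cells passed the limits on genes and mitochondrial share. Kept cells of the jejunum were shallower, at a median of 4690 and 5884 UMIs, than those of the ileum, at 12048 and 10916. Mitochondrial genes gave 3.61% and 3.74% of the UMIs of a median ileal cell, against 6.37% and 9.94% for the jejunum. No kept cell barcode was shared between libraries. Xist, expressed from the inactive X chromosome, stood at 537 and 467 counts per 1000000 UMIs (CPM) in the ileum and jejunum with the male label, against 0.712 and 0.984 CPM with the female label. The Y-linked genes Eif2s3y and Kdm5d were at most 0.885 CPM with the male label and at least 12.4 CPM with the female label, so these 3 genes go against both sex labels. Ddx3y, also Y-linked, was at 112 and 84.0 CPM with the male label, against 236 and 189.6 CPM. Uty did not follow the others, at 1.07 and 142 CPM with the male label and 123 and 74.4 CPM with the female label. Ileum and jejunum of replicate 1 thus differed in Uty although the labels give them to 1 mouse, and statements on mice below rest on those labels. Between 89.1% and 93.4% of the kept cells per library were enterocyte-like by 12 markers, and 472 to 561 cells per library were stem/progenitor-like. Enteroendocrine-like cells numbered 46 to 73 per library, immune-like cells 9 to 19 and goblet-like cells 3 to 9. No Paneth-like cluster was found.

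REG3B and REG3G are secreted lectins that bind bacterial cell walls and keep bacteria at a distance from the epithelium, and their genes are known to respond to microbes through MyD88 and to interleukin-22 through STAT3. Serum amyloid A proteins (Saa1, Saa2) are acute phase apolipoproteins that carry retinol and are also made by the ileal epithelium. LYPD8 is a membrane-anchored glycoprotein known to bind bacterial flagella, Defb37 encodes a beta-defensin, LEAP2 is a secreted peptide known to block the ghrelin receptor, and lipocalin 2 (Lcn2) binds the iron carriers of bacteria.

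The sequences upstream of the start sites are shown for the 4 lectin and serum amyloid genes because these members were highest in ileum replicate 1. They were taken by symbol from RefSeq windows on GRCm38.p6, which covered 6 of the 8 members. The submitters' processing notes name GRCm39 for the counts, so these coordinates are not those of the count files. Each run holds the 250 bases before the start site, 5′ to 3′. Capitals mark 4 motifs searched on both strands: the TATA box TATAAA, the STAT motif TTCNNNGAA, the C/EBP motif TTGCNNAA and the kappa B motif of NF-kB.
Reg3b, chr6:78370635-78370884, plus strand: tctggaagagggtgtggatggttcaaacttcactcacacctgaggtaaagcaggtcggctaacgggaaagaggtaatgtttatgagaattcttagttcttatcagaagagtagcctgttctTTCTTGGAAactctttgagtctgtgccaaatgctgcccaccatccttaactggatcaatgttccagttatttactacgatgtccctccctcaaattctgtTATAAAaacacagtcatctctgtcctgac
Reg3g, chr6:78468875-78469124, minus strand: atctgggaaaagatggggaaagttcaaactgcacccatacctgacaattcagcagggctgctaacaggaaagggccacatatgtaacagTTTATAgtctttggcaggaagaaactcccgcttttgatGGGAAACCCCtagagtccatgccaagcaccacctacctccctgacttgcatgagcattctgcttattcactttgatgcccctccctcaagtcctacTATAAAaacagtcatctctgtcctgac
Saa1, chr7:46742981-46743230, minus strand: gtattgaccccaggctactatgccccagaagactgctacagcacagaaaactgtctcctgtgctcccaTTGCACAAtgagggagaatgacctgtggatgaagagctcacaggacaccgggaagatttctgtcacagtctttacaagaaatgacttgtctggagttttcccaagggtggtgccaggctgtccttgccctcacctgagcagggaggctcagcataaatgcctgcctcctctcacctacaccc
Saa2, chr7:46751583-46751832, plus strand: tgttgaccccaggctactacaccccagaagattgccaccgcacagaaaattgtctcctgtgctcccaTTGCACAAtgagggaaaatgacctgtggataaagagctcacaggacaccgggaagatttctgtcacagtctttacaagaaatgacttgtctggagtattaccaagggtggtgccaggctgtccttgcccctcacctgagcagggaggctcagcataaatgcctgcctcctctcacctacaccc
The Reg3b and Reg3g stretches were identical at 173 of 247 aligned bases (70.0%), and those of Saa1 and Saa2 at 238 of 249 (95.6%), while the other pairs of members lay between 51.3% and 60.9%. Both lectin genes had TATAAA shortly before the start site. Reg3b alone among the 4 held the STAT motif and Reg3g alone the kappa B motif, while Saa1 and Saa2 shared TTGCACAA. Among 32851 mouse promoter windows, TATAAA was present in 12.4%, TTCNNNGAA in 7.02%, TTGCNNAA in 9.56% and the kappa B motif in 7.25%. The motifs were chosen with these sequences in view, so the matches describe the letters only. Reg3b and Reg3g, and likewise Saa1 and Saa2, are close copies of each other, and how the counting divided any reads they share was not tested.

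In enterocyte-like cells the members fell into 3 groups by level and direction. Lypd8 and Leap2 were abundant in every library, Reg3b and Reg3g reached over 100 CPM in ileum replicate 1 alone, and Saa1, Saa2, Defb37 and Lcn2 were low. Of the 6 members with more than 3 UMIs in each region, Saa1, Lypd8 and Defb37 were higher in both ileal libraries, Leap2 was higher in both jejunal libraries, and Reg3b and Reg3g overlapped between the regions. Complete separation of the regions was common in these cells. Of 10653 genes with at least 5 CPM in a library, 69.6% did not overlap, 50.5% with the ileum higher and 19.1% with the jejunum higher, so 4 of 6 members was close to the background.

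**Figure D1:**
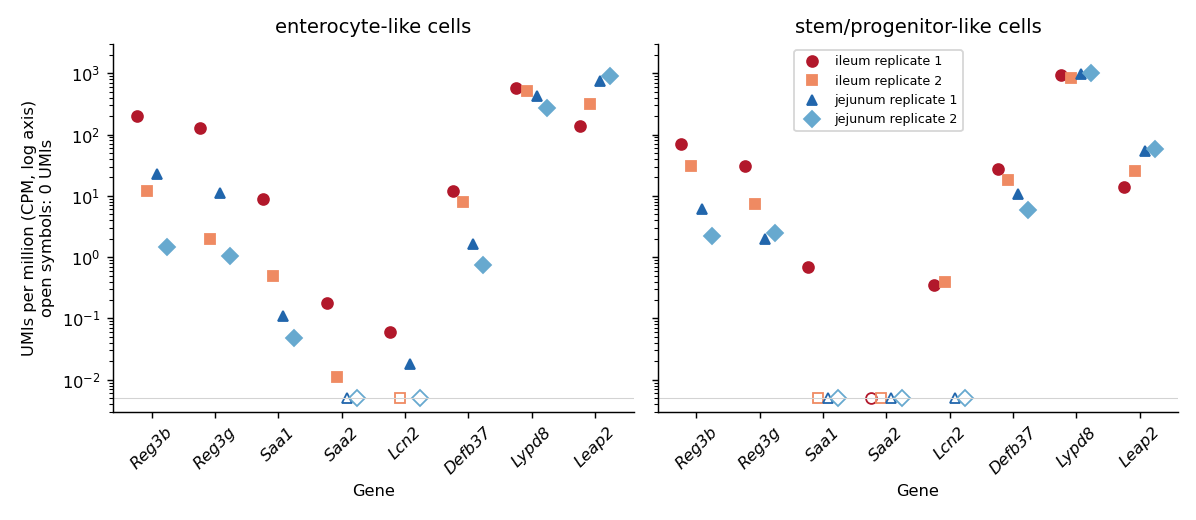
Levels of the 8 genes in enterocyte-like cells (left) and stem/progenitor-like cells (right). Each symbol is the CPM of 1 library's summed UMIs on a log axis, and open symbols mark 0 UMIs. In enterocyte-like cells Reg3b reached 198 CPM in ileum replicate 1 and stayed at or under 22.8 CPM in the other libraries, and Leap2 was higher in both jejunal libraries than in both ileal ones.

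Reg3b stood at 198 CPM in ileum replicate 1, 11.9 CPM in ileum replicate 2, 22.8 CPM in jejunum replicate 1 and 1.44 CPM in jejunum replicate 2. Reg3g stood at 129, 2.01, 11.0 and 1.06 CPM in the same order. For both genes ileum replicate 1 was far above the rest, and jejunum replicate 1 came next, above ileum replicate 2. The sum of the lectins was 327, 13.9, 33.8 and 2.50 CPM, which put ileum replicate 1 at 9.67 times the highest other library. This rested on 27375 UMIs in ileum replicate 1 and 106 to 1870 UMIs in the others.

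Replicate 1 carried the higher value in both regions. In the ileum, replicate 1 was 16.6 times replicate 2 for Reg3b and 64.3 times for Reg3g. In the jejunum the ratios were 15.8 and 10.4. Within each mouse the ileum was also above the jejunum. The log2 difference of Reg3b, ileum against jejunum, was 3.12 in mouse 1 and 3.04 in mouse 2, and that of Reg3g was 3.55 and 0.92. Over the region means, the ileum stood at 105 ± 131 CPM of Reg3b and the jejunum at 12.1 ± 15.1 CPM (SD, n = 2), so the SD exceeded the mean in both. Without ileum replicate 1, the log2 difference of the region means went from 3.11 to -0.03 for Reg3b and from 3.44 to -1.59 for Reg3g, and without jejunum replicate 1 it went to 6.19 and 5.95. The balance of the pair also varied. Reg3b gave 1.53 UMIs per Reg3g UMI in ileum replicate 1 (95% exact interval 1.49 to 1.57) and 5.91 in ileum replicate 2 (5.06 to 6.95), against 2.06 and 1.36 in the jejunum. Intervals here and below cover counting error only.

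The share of enterocyte-like cells with a UMI of either lectin was 51.5% in ileum replicate 1, 5.15% in ileum replicate 2, 8.91% in jejunum replicate 1 and 0.962% in jejunum replicate 2. Because jejunal cells were shallower, each cell was also thinned to 2000 UMIs, leaving out 46 to 684 shallower cells per library. The shares were then 26.7%, 1.58%, 5.05% and 0.387%. At this depth 2.97% of the cells of ileum replicate 1 held 5 or more lectin UMIs, against 0.0913% in ileum replicate 2 and 0.183% in jejunum replicate 1. No cell of jejunum replicate 2 did among 4904. Classes that could show the level of free RNA held few cells. At 2000 UMIs a lectin UMI was found in 0 of 9, 0 of 10, 1 of 18 and 0 of 12 immune-like cells of the libraries in the same order, and in 11 of 72, 1 of 67, 0 of 59 and 0 of 45 enteroendocrine-like cells. For ileum replicate 2 the enteroendocrine-like share of 1.49% rested on 1 cell (95% exact interval 0.0378% to 8.04%). This is too wide to set against the 1.58% of enterocyte-like cells. Before thinning, 2 of 19 immune-like cells (10.5%) and 0 of 67 enteroendocrine-like cells of jejunum replicate 1 held a lectin UMI, beside 8.91% of enterocyte-like cells. The exact 95% upper limit for 0 of 67 was 5.36%. The median depths of the 3 classes there were 5061, 3198 and 4803 UMIs. How much of the lectin counts came from free RNA was not tested.

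**Figure D2:**
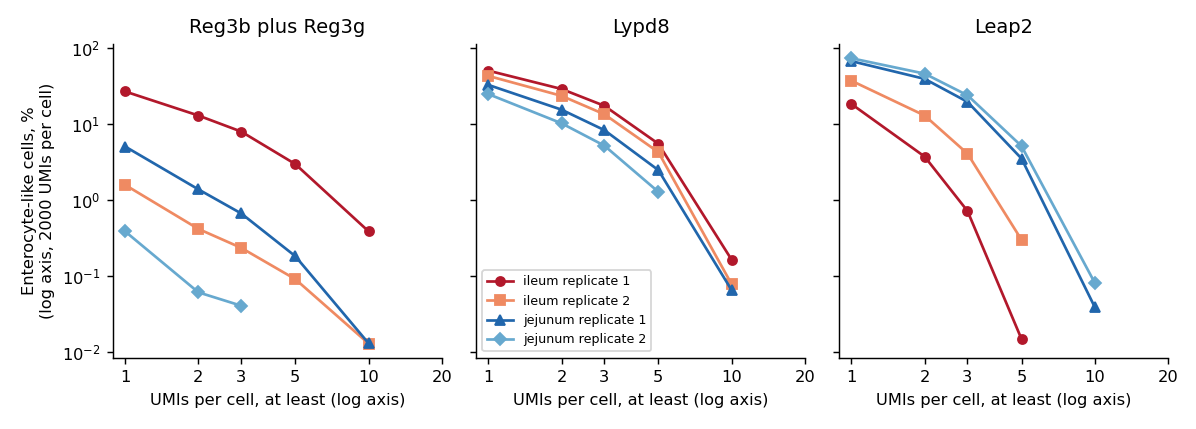
Share of enterocyte-like cells (log axis, percent) with at least the number of UMIs on the horizontal log axis, after thinning every cell to 2000 UMIs, for Reg3b plus Reg3g, Lypd8 and Leap2. The lectin curve of ileum replicate 1 starts at 26.7% and lies above the other 3 libraries throughout, while the Leap2 curve of the same library starts lowest, at 18.3%.

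The lectins were not spread over the clusters of enterocytes in the same way in each library. In ileum replicate 1 every cluster of at least 50 cells was at 84.4 CPM or more, and cluster 13 reached 919.9 CPM, where 88.7% of 533 cells held a lectin UMI and 32.6% of the library's lectin UMIs fell. Cluster 13 was led by Reg3g, Rian, Reg3b, Meg3 and Afp, so its lectin level is a description of the cluster and no test. The same cluster held 420 cells of ileum replicate 2, with the lectins at 10.0 CPM, and 15 cells in each jejunal library. When clusters were formed without the 8 members, a cluster led by Reg3g, Rian and Meg3 appeared again and held 427 cells of ileum replicate 1 at 897 CPM.

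In ileum replicate 2 other clusters were the highest. Cluster 8, led by Cyp2d26, and cluster 2 were at 61.4 and 52.2 CPM with 5.29% and 7.47% of the library's lectin UMIs. Cluster 3, which was led by Ms4a18, Aldh1a1, Defb37 and the bile acid carrier Fabp6, held 44.0% of the library's lectin UMIs at 44.6 CPM, and stem/progenitor-like cluster 15 was at 46.6 CPM. Cluster 11, led by 3300005D01Rik, Sprr2a2 and Enpp3, was at 1.70 CPM there. In jejunum replicate 1 that cluster was the highest, at 168 CPM and 30.0% of the lectin UMIs, followed by cluster 7 (led by Sprr2a2 and the villus tip gene Nt5e) at 161 CPM and cluster 10 (led by the Bglap genes) at 93.6 CPM. Cluster 3 was at 15.4 CPM in that library. In these clusters 36.8%, 21.9%, 20.4% and 8.52% of the cells held a lectin UMI, and in cluster 3 of ileum replicate 2 20.6% did. In jejunum replicate 2 a few cells held many of the lectin UMIs. Cluster 6 held 44 of 123 UMIs, in 2.38% of its 336 cells.

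**Figure D3:**
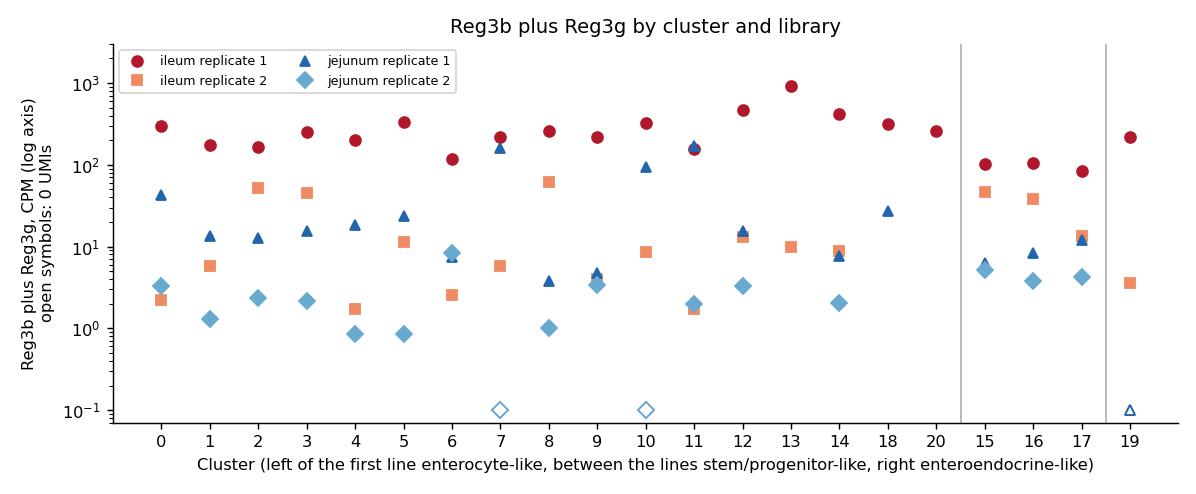
Reg3b plus Reg3g per cluster and library as CPM on a log axis, for clusters with at least 50 cells of the library. Open symbols mark 0 UMIs. Ileum replicate 1 peaks in cluster 13 at 919.9 CPM, jejunum replicate 1 in clusters 11 and 7 at 168 and 161 CPM, and ileum replicate 2 stays at or under 61.4 CPM.

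In stem/progenitor-like cells the regions did not overlap for the lectins. Reg3b stood at 69.1 and 31.1 CPM in the ileum, against 6.15 and 2.22 CPM in the jejunum. Reg3g stood at 30.1 and 7.48 CPM in the ileum, against 1.94 and 2.49 CPM in the jejunum. The counts were small, from 6 to 200 UMIs of each gene, and 45.9% of 12483 genes separated the regions in these cells. Ileum replicate 1 exceeded ileum replicate 2 by 2.57 times for the sum, against 23.5 times in enterocyte-like cells. In ileum replicate 2 the sum was higher in stem/progenitor-like cells (38.6 CPM) than in enterocyte-like cells (13.9 CPM), whereas ileum replicate 1 showed the reverse order (99.2 and 327 CPM). Enteroendocrine-like cells of ileum replicate 1 were at 217 CPM, carried by 11 of 73 cells. Among goblet-like cells, all 3 of ileum replicate 1 and 3 of the 9 of jejunum replicate 1 held a lectin UMI, at 707 and 1242 CPM, and those of replicate 2 held none.

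Saa1 was also highest in ileum replicate 1, at a much lower level than the lectins. It stood at 8.80 CPM in ileum replicate 1 (737 UMIs) and at 0.499 CPM in ileum replicate 2 (46 UMIs), while the jejunal libraries held 6 and 2 UMIs. Ileum replicate 1 was 17.6 times the highest other library. Within mice, the ratio of ileum to jejunum was 81.1 in mouse 1 (95% exact interval 37.1 to 222) and 10.6 in mouse 2 (2.77 to 90.0), the latter on 46 and 2 UMIs. Without ileum replicate 1 the log2 difference of the means went from 5.90 to 2.68. Saa2, its neighbour on the chromosome, gave 15 UMIs in ileum replicate 1, 1 UMI in ileum replicate 2 and 0 in the jejunum. Saa1 was found in 5.68% of the enterocyte-like cells of ileum replicate 1 and in 0.403% of those of ileum replicate 2. Cluster 13 held 42.8% of its UMIs in ileum replicate 1, at 32.2 CPM. In stem/progenitor-like cells Saa1 gave 2 UMIs in ileum replicate 1 and 0 elsewhere.

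Cells with one of these genes tended to hold another. In ileum replicate 1, at 2000 UMIs per cell, Reg3g was found in 32.9% of the cells with Reg3b and in 8.45% of those without it, and Saa1 in 6.05% of the cells with Reg3g and 0.741% of those without. In jejunum replicate 1 Reg3g was found in 17.2% of the cells with Reg3b and in 1.54% of the others. For Lypd8 and Reg3g the libraries went different ways. Lypd8 was present in 49.5% of the cells with Reg3g and 50.3% of those without in ileum replicate 1, in 83.3% and 42.6% in ileum replicate 2 and in 14.3% and 33.0% in jejunum replicate 1, and in 62.5% and 24.7% in jejunum replicate 2. Reg3g was found in 24 cells of ileum replicate 2 and 161 of jejunum replicate 1 at this depth, and in 8 of jejunum replicate 2.

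Lcn2 was at the limit of detection. Enterocyte-like cells held 5 UMIs of it in ileum replicate 1, 1 in jejunum replicate 1 and 0 in the other libraries, where 3 UMIs would have meant 0.0326 CPM in ileum replicate 2. Stem/progenitor-like cells gave 1 UMI in each ileal library. No difference between regions or replicates was detectable for Lcn2 at this depth.

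Lypd8 was abundant in enterocyte-like, stem/progenitor-like and goblet-like cells of every library. In enterocyte-like cells it stood at 583 and 522 CPM in the ileum and at 432 and 272 CPM in the jejunum, 1.57 times higher in the ileum by the means of 552 ± 43.5 and 352 ± 113 CPM (SD, n = 2). The share of these cells with a Lypd8 UMI at equal depth was 50.2% and 42.8% in ileal libraries, against 32.6% and 24.7% in jejunal ones. In stem/progenitor-like cells it was higher than in enterocytes in all 4 libraries, at 947 and 839.9 CPM in the ileum and 961 and 1003 CPM in the jejunum, so that here the jejunum was slightly above. In the few goblet-like cells it was higher still, from 1845 to 5747 CPM over 3 to 9 cells per library. Leaving out jejunum replicate 1 moved the log2 difference in enterocyte-like cells from 0.65 to 1.02, and leaving out jejunum replicate 2 moved it to 0.35. Immune-like cells, which should lack Lypd8, held a UMI of it in 5 of 9, 6 of 11, 5 of 19 and 1 of 14 cells, and at 2000 UMIs in 0 of 9, 3 of 10, 2 of 18 and 1 of 12.

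Lypd8 varied more between clusters than between libraries. Cluster 3 was the highest in 3 libraries, at 1642 and 1492 CPM in the ileum and 1418 CPM in jejunum replicate 1, while jejunum replicate 2 had it at 1019.9 CPM, below the stem/progenitor-like cluster 15 at 1189 CPM. Cluster 11 was far lower in all 4, at 99.8, 60.2, 38.3 and 28.0 CPM. Over 76 sums of at least 50 cells by library and cluster, the pattern most like that of Lypd8 belonged to the calcium-binding gene S100g (Pearson's r = 0.93), then to the ribosomal protein gene Rpl5 (0.88), the fatty acid desaturase Fads2 (0.87), the oligosaccharyltransferase subunit Stt3b (0.86) and Kif12 (0.85). For S100g the coefficient within the sums of single libraries was 0.94 to 0.96. The sums share libraries, so these coefficients are descriptions.

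When enterocyte-like cells were ordered by their share of 7 villus tip genes and cut into 5 equal bins, Lypd8 fell from 1029 to 295 CPM from the lowest to the highest bin in ileum replicate 1 and from 725 to 374 CPM in ileum replicate 2. In the jejunum it went up from 256 to 483 CPM and from 174 to 381 CPM. The share of ribosomal protein UMIs moved the same way, falling from 5.78% to 3.32% and from 5.16% to 3.31% in the ileum and rising from 2.91% to 3.40% and from 2.99% to 3.38% in the jejunum. The lowest bin also held the shallowest cells in every library, at a median of 2741 to 6460 UMIs. The part of depth in this order was not tested.

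Defb37 was found mainly in cells with Lypd8, at far lower counts. It stood at 11.9 and 7.99 CPM in ileal enterocyte-like cells and at 1.63 and 0.755 CPM in jejunal ones, 8.37 times higher in the ileum by the means. Stem/progenitor-like cells were above enterocytes in each library, at 27.3 and 18.1 CPM in the ileum and 10.7 and 5.82 CPM in the jejunum. Cluster 3 of ileum replicate 1 had 57.0 CPM and 49.8% of the library's Defb37 UMIs, while in ileum replicate 2 cluster 2 was the highest at 36.5 CPM. No immune-like cell held a Defb37 UMI in any library. Over the bins of villus tip genes it fell from 36.6 to 2.24 CPM in ileum replicate 1 and from 19.2 to 3.23 CPM in ileum replicate 2, and the outer jejunal bins held only 4 to 26 UMIs each. At equal depth it was found in 4.07% of the cells with Lypd8 and in 1.05% of those without in ileum replicate 1, and in 2.99% and 0.547% in ileum replicate 2.

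Leap2 was higher in the jejunum in both main classes. In enterocyte-like cells it stood at 136 and 310.4 CPM in the ileum and at 737 and 917 CPM in the jejunum, 3.70 times higher in the jejunum by the means of 827 ± 127 and 223 ± 123 CPM (SD, n = 2). The within-mouse log2 differences, ileum against jejunum, were -2.43 and -1.56, and that of the means, -1.89, lay between -2.60 and -1.41 with a library left out. At equal depth 18.3% and 37.0% of ileal cells held a Leap2 UMI, against 66.9% and 73.0% of jejunal cells and, among immune-like cells, 0 of 9, 0 of 10, 4 of 18 and 0 of 12. The library with the highest lectin level had the lowest Leap2 level, but its cells with Reg3g did not hold less Leap2. At equal depth Leap2 was found there in 22.1% of the cells with Reg3g and 17.7% of those without. The shares were 16.7% and 37.1% in ileum replicate 2, on 24 cells with Reg3g. They were 70.2% and 66.8% in jejunum replicate 1, and 75.0% and 73.0% in jejunum replicate 2, there on 8 cells with Reg3g. Leap2 in ileum replicate 2 was 2.28 times that in replicate 1, and in the jejunum replicate 1 was 0.804 times replicate 2. Stem/progenitor-like cells held little of it, at 13.8 and 25.6 CPM in the ileum and 54.4 and 57.6 CPM in the jejunum, with the same order of regions.

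The 5 genes most like Leap2 over the 76 sums were the fatty acid binding protein gene Fabp2 (r = 0.97), the gluconeogenic gene Pck1 (0.95), the glucose transporter Slc2a2 (0.95), the acyltransferase Agpat3 (0.94) and lactase, Lct (0.93), and each kept 0.83 or more within every library. Fabp2 and Lct are among the enterocyte markers that named the clusters. Between Lypd8 and Leap2 the coefficient was -0.54. At equal depth Leap2 was found in 15.3% of the cells with Lypd8 and 21.4% of those without in ileum replicate 1, in 32.7% and 40.3% in ileum replicate 2, in 58.8% and 70.8% in jejunum replicate 1 and in 60.8% and 77.1% in jejunum replicate 2.

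**Figure D4:**
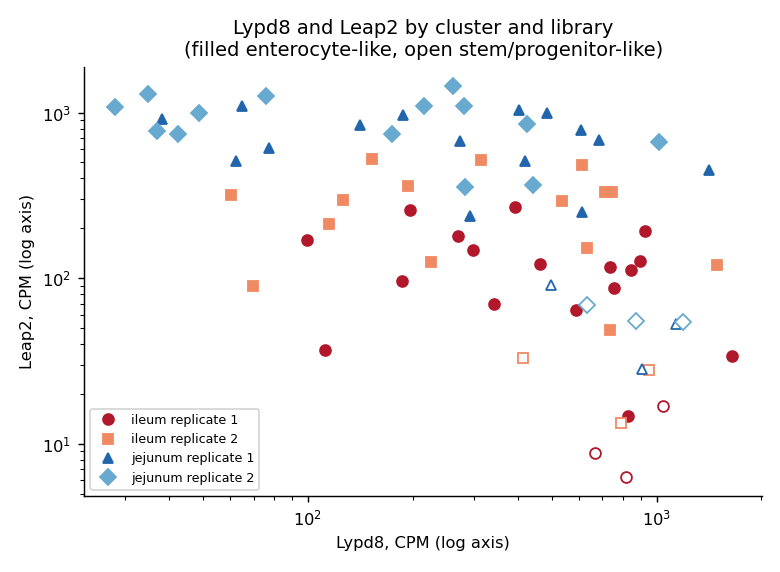
Lypd8 against Leap2, both as CPM on log axes, for each library and cluster with at least 50 cells. Filled symbols are enterocyte-like clusters and open symbols stem/progenitor-like clusters. The highest Leap2 level of a cluster is 270.3 and 528 CPM in the ileal libraries and 1089 and 1445 CPM in the jejunal ones, and the lowest level of each library lies in a stem/progenitor-like cluster.

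The other genes raised in ileum replicate 1 were then counted. In enterocyte-like cells 75 of 10653 genes (0.704%) had at least 5 CPM in that library and at least 2 times the level of every other library, the rule by which Reg3b, Reg3g and Saa1 also counted. The corresponding counts were 15 (0.141%) in ileum replicate 2, 18 (0.169%) in jejunum replicate 1 and 86 (0.807%) in jejunum replicate 2. By fold over the highest other library, Reg3g was rank 2 and Reg3b rank 5 of 7046 genes with at least 20 CPM. The gene at rank 1 was Ppfia2, known for a synaptic scaffold protein, at 197 CPM against 1.81 to 2.29 CPM, an 86.2-fold difference. It was followed, members left out, by Dock3 (11.5-fold), Ppef1 (8.95-fold), the amino acid transporter Slc6a14 (7.58-fold), the maternally expressed noncoding RNAs Rian (4.96-fold) and Meg3 (4.04-fold), AA467197 (3.76-fold), Gatm of creatine synthesis (3.57-fold), Rarres1 (3.48-fold) and Sprr2a2 of the cornified envelope family (2.97-fold).

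Ppfia2 and the lectins differed in where they lay within the library. Ppfia2 was found in 81.2% of enterocyte-like, 72.2% of stem/progenitor-like and 57.5% of enteroendocrine-like cells of ileum replicate 1, and in 8 of its 9 immune-like cells. Its level there was 197, 268, 295 and 301 CPM in these classes, so it was raised in these 4 classes, and the part of a source acting on the whole library was not tested. Jejunum replicate 1, labelled as the same mouse, held it in 1.49% of enterocyte-like cells. Over all 76 sums Ppfia2 was the gene most like the sum of the lectins (r = 0.83), followed by Dock3 (0.82), Mfsd4a (0.79), Slc6a14 (0.78) and the basement membrane gene Nid1 (0.75). Within the 21 sums of ileum replicate 1 alone the coefficient was -0.36 for Ppfia2, -0.47 for Dock3, 0.30 for Mfsd4a and 0.56 for both Slc6a14 and Nid1. In the other 3 libraries Mfsd4a had 0.32, 0.52 and 0.24, while Slc6a14 had -0.10, -0.05 and 0.24, Nid1 -0.04, 0.04 and 0.13, Ppfia2 0.04, -0.20 and 0.29, and Dock3 0.31, -0.19 and 0.22. For the sum of Saa1 and Saa2 the 5 genes were Slc6a14 (0.82), Ppef1 (0.82), AA467197 (0.79), Adam12 (0.78) and Nid1 (0.77), with 0.50 to 0.72 within ileum replicate 1, -0.13 to 0.74 within ileum replicate 2 and -0.27 to 0.28 within the jejunal libraries.

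**Figure D5:**
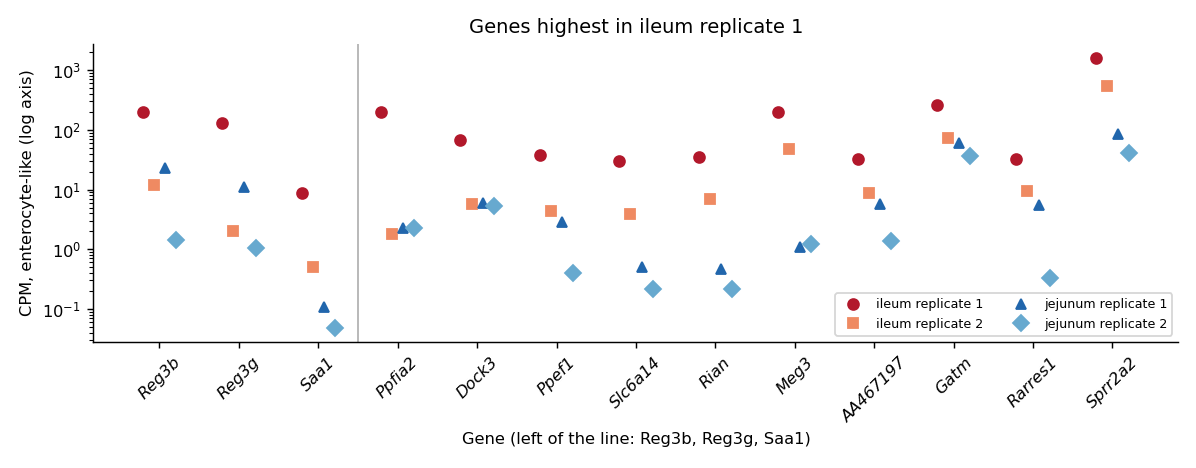
Levels in enterocyte-like cells, as CPM on a log axis, of Reg3b, Reg3g and Saa1 and of the 10 other genes with the largest fold of ileum replicate 1 over the highest other library. Each symbol is 1 library. Ppfia2 is at 197 CPM in ileum replicate 1 and at or under 2.29 CPM elsewhere, while Sprr2a2 and Meg3 are also higher in ileum replicate 2 than in the jejunum.

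Markers of other cell types were set beside this library. Of the 11 neutrophil markers, S100a8, Retnlg and Elane had no UMI in enterocyte-like cells of any library, and the list's sum of 21.8, 13.8, 4.46 and 5.00 CPM included lactoferrin (Ltf), at 19.5 and 10.3 CPM in the ileum and 1.20 CPM in jejunum replicate 2. The 5 erythroid genes summed to 6.97 CPM in ileum replicate 1 and to 0.413, 0.217 and 0.307 CPM in the other libraries. Only Hba-a1 in jejunum replicate 2 was at 0. The 13 immune markers summed to 6.15 and 4.91 CPM in the ileum and 21.6 and 28.1 CPM in the jejunum. The higher jejunal sum lay in Trac, at 2.11 and 1.21 CPM in the ileum and 19.0 and 25.5 CPM in the jejunum. Coro1a went the other way, at 1.93 and 2.24 CPM against 0.217 and 0.0236 CPM. The 10 pancreatic acinar genes summed to 15.5 and 27.8 CPM against 74.9 and 76.0 CPM. That difference lay in Ctrb1 (1.10 and 2.18 against 40.5 and 37.9 CPM) and Cela1 (13.3 and 24.7 against 33.0 and 36.8 CPM). The dissociation and stress genes summed to 2945 CPM in ileum replicate 1 and 2547 to 2781 CPM elsewhere. The part of red cell RNA in the lectin level was not tested, and neither was that of the stress genes. Summed over all cells kept, without classes, the lectins were at 319 CPM in ileum replicate 1 and at most 32.9 CPM in the others.

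Other genes of the same pathways were read by the same rule. Of the 60 genes in lists of the Reg family, epithelial defence, liver acute phase, IL-22 and STAT3 signalling, microbial sensing, interferon response and MHC class II with at least 5 CPM in a library, 0 reached 2 times every other library in ileum replicate 1, beside 0.704% of all genes, a share too low for 60 genes to tell apart from 0. List genes under 5 CPM in every library were left out, and some of them did pass 2 times. Sprr2a3 stood at 3.87, 0.869, 0.126 and 0.0708 CPM in ileum replicates 1 and 2 and jejunum replicates 1 and 2. Mptx1 stood at 1.15, 0.0977, 0.126 and 0.0472 CPM. Others did not, such as Crp at 1.18, 1.77, 1.99 and 2.01 CPM, and the low genes were not counted. Stat3 stood at 416, 366, 355 and 287 CPM, and Il10rb, a subunit of the IL-22 receptor, at 214, 196, 194 and 185 CPM. The NF-kB inhibitor Nfkbia stood at 363, 259.8, 229 and 354 CPM. Ileum replicate 1 was the highest for these 3, though under 2 times every other library. It was the lowest for Cebpb (90.5, 95.4, 119 and 119 CPM) and Nfkbiz (76.4, 80.7, 89.0 and 131 CPM) of the same lists. The share of all genes highest in that library was not counted.

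A few list genes instead followed the replicate number in both regions, as the lectins did. Mouse, labelled sex and batch cannot be told apart in this comparison. Replicate 1 was at least 2 times replicate 2 in the ileum and in the jejunum for 73 of the 10653 genes (0.685%), among them Reg3b and Reg3g, and for 4 of the 60 list genes, which were named after their values were seen. Saa3, an acute phase gene of the serum amyloid family, stood at 33.0 CPM in ileum replicate 1 and 17.2 CPM in jejunum replicate 1, against 0.434 and 0.260 CPM in replicate 2. Its ratios of 75.9 and 66.3 were larger than those of the lectins. Pigr, the receptor that carries IgA to the lumen, stood at 102 and 19.3 CPM in the ileum, against 322 and 80.5 CPM in the jejunum. The metallothionein Mt1 (2.30 and 2.91 times) and the interferon-induced gene Ifit2 (4.10 and 2.39 times) were the others. The reverse held for 28 genes (0.263%) and for 1 list gene, Mt2, at 14.1 and 14.6 CPM in replicate 1 and 187 and 179.5 CPM in replicate 2. Saa3 was highest in cluster 6 of ileum replicate 1 (75.0 CPM) and cluster 4 of jejunum replicate 1 (37.9 CPM), both with Leap2 among their 10 leading genes, and no immune-like cell held a Saa3 UMI.

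The region comparison was then read for the same lists with the library as the unit. In enterocyte-like cells edgeR's quasi-likelihood test called 1413 of 19760 genes (7.15%) at a Benjamini-Hochberg adjusted p under 0.05, 817 with the ileum higher (4.13%) and 596 with the jejunum higher (3.02%). Of the 106 list genes tested, 10 were called with the ileum higher and 7 with the jejunum higher, and their median log2 difference, ileum against jejunum, was 0.03 against -0.01 over all genes tested. With the mouse as a block 2974 genes were called, and 15 and 16 list genes in the respective directions. Without ileum replicate 1 the counts fell to 69 genes and 1 list gene, Zbp1, and without ileum replicate 2 to 303 and 5. Without jejunum replicate 2 the test called 864 genes. Without the count filter 619 genes and 7 of the 17 list genes were called, and DESeq2 called 3144 and 28.

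Among antimicrobial and acute phase genes, lactoferrin and the cathelicidin Camp were higher in the ileum by 2.69 ± 0.48 and 3.53 ± 0.45 on the log2 scale (SE, edgeR adjusted p = 0.0363 and 0.0224). Both genes are also on the neutrophil list. Fgb, the fibrinogen beta chain, rose to 22.9 CPM in the ileum from 0.951 CPM, and Lbp, which presents bacterial lipopolysaccharide, to 31.0 from 9.78 CPM (edgeR adjusted p = 0.0494 and 0.0193). The regenerating family gene Reg4, a mark of secretory cells, stood at 71.7 and 61.4 CPM in the ileum, against 28.1 and 30.6 CPM in the jejunum, and in stem/progenitor-like cells it was the 1 list gene called of 62 tested (log2 difference 2.65, edgeR adjusted p = 0.00212). Leaving out either ileal library took the adjusted p of these 5 genes above 0.05 in enterocyte-like cells. Tlr2 and Tlr4, receptors for bacterial lipoproteins and lipopolysaccharide, were higher in the ileum by 2.11 and 2.14 at 0.307 to 3.01 CPM. Steap4, Sprr2a3 and the tetherin gene Bst2 were also called higher in the ileum. Steap4 was low throughout, at 0.991 and 0.347 CPM in the ileum and 0.0361 and 0.0472 CPM in the jejunum. Sprr2a3 was at 3.87 and 0.869 CPM against 0.126 and 0.0708 CPM, and Bst2 at 70.9 and 61.6 CPM against 37.0 and 37.1 CPM.

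The most abundant genes of the lists did not pass the test, apart from those named above and Nlrp6. The complement gene Cfb stood at 165, 158, 157 and 176 CPM, and Tollip, which dampens Toll-like receptor signals, at 176, 153, 145 and 119 CPM. The interferon-induced gene Ifit1 stood at 382, 353, 582 and 448 CPM, with an edgeR adjusted p of 0.0802. The class II genes H2-DMa and H2-Ab1 stayed at or under 2.83 CPM in every library, and Reg1, another member of the regenerating family, at or under 0.967 CPM.

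In the jejunum, the inflammasome sensor Nlrp6 stood at 109 and 114 CPM against 32.7 and 40.8 CPM, a log2 difference of -1.71 ± 0.18 (SE, edgeR adjusted p = 0.0173). Of the 21 interferon response genes tested, Zbp1, Rsad2 and Oasl2 were called higher in the jejunum and Bst2 in the ileum, with a list median of -0.60. DESeq2 called 10 of these 21, and 11 had an unadjusted p under 0.05 by edgeR. Zbp1, a sensor of nucleic acids, had the largest difference among these, -2.74 ± 0.20 (edgeR adjusted p = 0.0138). Lyz1, lysozyme of Paneth cells, stood at 0.800 and 0.337 CPM in the ileum, against 2.55 and 2.10 CPM in the jejunum. Bcl3 and Itih3 completed the 7. Of the 17 IL-22 and STAT3 genes tested, Steap4 and Bcl3 were called, in opposite directions, and of the 6 MHC class II genes 0 were called by edgeR, with 1 at an unadjusted p under 0.05, and 0 by DESeq2.

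In stem/progenitor-like cells the test called 346 of 12717 genes (2.72%), 177 with the ileum higher (1.39%) and 169 with the jejunum higher (1.33%). It called 1211 with the mouse as a block, 852 without jejunum replicate 1 and 863 without the count filter. Of the 62 list genes tested there, 9 had an unadjusted p under 0.05. Of the 11 dissociation and stress genes, 5 were called higher in the jejunum in these cells (Fos, Fosb, Junb, Hspa1a and Hspa1b), against 0 of 11 in enterocyte-like cells, where 1 had an unadjusted p under 0.05 and DESeq2 called 0. The part of these stress genes in the values for stem/progenitor-like cells was not tested.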

How the data were processed

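PIPseeker made the count matrices, and the authors took its sensitivity level 3. The deposited values are raw UMI counts per gene and called cell. The submitters' processing notes name GRCm39, and the annotation is not given in the sources used here. The members and gene lists were chosen with earlier results of these data known, as were the thresholds for naming clusters. Genes seen in at least 3 cells of a library entered the gene count and mitochondrial share of each cell. Clustering used genes seen in at least 3 cells over all libraries, and levels were taken over all genes. Cells needed more than 1000 and fewer than 6000 genes and less than 20% mitochondrial UMIs, after the study's limits. Doublets were scored with Scrublet in scanpy 1.11.5 (expected share 6%), which called 1 or 2 cells per library, and none was removed. Seurat 5.3.0 integrated the libraries by canonical correlation analysis and formed 23 clusters, named from markers as "X-like". A difference from other accounts may come from these rebuilt names.

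Levels are counts per 1000000 UMIs of a library and class (CPM). A fold was given only where both groups had more than 3 UMIs, and a ratio on fewer with its counting interval. Shares were thinned to 2000 UMIs per cell, with Clopper-Pearson exact 95% intervals. Regions were compared over 4 library sums with edgeR 4.0.16 (R 4.3.3), filterByExpr, TMM and the quasi-likelihood test. The test was first tried on simulated counts drawn independently for each library. That trial held no shared mouse or batch effect, so it does not check the fit against the pairing. Replicate numbers pair the samples, since each replicate carries 1 mouse number in the titles and, by the design text, ileum and jejunum were taken from the same animals. For both libraries of replicate 1 the names of the deposited matrices carry another number than the titles, the same one in both, so either number pairs them. Over 10653 genes the replicate 1 deviations from the region means correlated at 0.43 between the regions. Batch and labelled sex run with the replicate numbers, so this value cannot tell a shared mouse from a shared batch or sex. Likeness was Pearson's r of log2(CPM + 5).

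Named genes were the members, in each list the 2 most abundant genes and up to 3 called genes with the largest change, the 10 genes raised most in ileum replicate 1, and the 5 most alike per pattern. Other genes were named after their values were seen. DESeq2 1.42.0, other filters, clusterings and libraries left out were tried. With 1 library of a region left out, the remaining one is assumed to vary like the others. Where nothing else is said, p-values come from a fit on region alone and measure the spread between the 2 libraries of each region. By the labels the same 2 mice gave both regions, and this fit leaves that pairing out. Differences between mice, labelled sexes and batches are part of that spread.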

Additional observations from a re-analysis of the deposited data

Results flagged for a closer look

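The region difference of Lypd8 had opposite directions in the main cell classes. In enterocyte-like cells both ileal libraries were above both jejunal ones, with a log2 difference of 0.65, and in stem/progenitor-like cells both were below, with -0.14. This difference between classes was not tested. The change in stem/progenitor-like cells was small, from 839.9 to 1003 CPM over the 4 libraries.

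The change of Lypd8 along the order of villus tip genes also had opposite signs in the regions. The values of Defb37 did too, though on few jejunal UMIs. From the lowest to the highest of 5 bins, Lypd8 changed by -1.80 and -0.95 on the log2 scale in ileum replicates 1 and 2 and by 0.92 and 1.13 in the jejunum. Defb37 changed by -4.03 and -2.57 in the ileum. Its jejunal changes of 0.57 and 0.61 rested on 8 and 26 UMIs in the outer bins of replicate 1 and on 4 and 12 in those of replicate 2. From lowest to highest, the bins of jejunum replicate 2 were at 0.848, 0.658, 0.727, 0.360 and 1.29 CPM, so no jejunal direction is shown for Defb37. The lowest jejunal bins were also the shallowest, at medians of 2741 and 3916 UMIs. The difference between regions was not tested, and the bins of a library share its cells. With 2 libraries per region, no library was tested for standing apart from its group.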

How the results depend on the processing

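The count of called genes moved most. In enterocyte-like cells it was 1413, with 3144 by DESeq2, 619 without a count filter and 2974 with the replicate block, and 69 to 1995 with a library left out. In stem/progenitor-like cells it was 346, with 863 without a count filter, 1211 with the block and 382 to 852 with a library left out. The list genes called numbered 17, with 28 by DESeq2, 7 without a count filter, 31 with the block and 1 to 22 with a library left out. The block kept all 17 calls. The other planned settings stayed within 1.5 times of each count. The lectin log2 difference of ileum replicate 1 over the highest other library was 3.27, and moved to 3.36 with a mitochondrial limit of 10% and 3.35 without integration, and the count of genes at least 2-fold above the other libraries ranged from 67 to 82.

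With a library left out, the region difference ranged from -0.03 to 6.19 for Reg3b and from -1.59 to 5.95 for Reg3g. Both turned negative without ileum replicate 1, where ileum replicate 2 alone was set against the mean of both jejunal libraries. Within mouse 2 the log2 differences were 3.04 and 0.92, and what sets the replicates apart was not tested. Of 72 member values, 65 moved by less than the spread between replicates. For Reg3b that spread was wide, 16.6 times in the ileum and 15.8 times in the jejunum, so for it this count says little about stability. Of 420 values for 28 named list genes, 346 kept their side of the threshold, 57 lost and 3 gained a call, and 14 reversed, all of uncalled genes. Nfkbia (main -0.03) went to 0.01 without a count filter or integration, 0.13 under the 10% limit, 0.02 over all kept cells, 0.15 without ileum replicate 2, and from -0.33 to 0.38 with a library left out. Il10rb (0.00) went to -0.00036 with DESeq2 size factors, -0.03 thinned, -0.04 under the 10% limit, and -0.01 at resolution 0.5 or without ileum replicate 1. H2-DMa went to -0.01 over all kept cells, and Mt1 ranged from -0.77 to 0.81 with a library left out, at 0.34 without ileum replicate 2. Of 96 values for the share of cells with a UMI, 38 moved, and depth limits Saa2 and Lcn2 to a few UMIs.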

Other observations

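In the cells of ileum replicate 1 that did not pass, Reg3b stood at 194 CPM, Reg3g at 152 CPM and Saa1 at 10.6 CPM, and in those of jejunum replicate 2 Reg3b stood at 1.38 CPM. Leap2 stood at 431 CPM in the removed cells of jejunum replicate 1, under the 697 CPM of the kept cells, while Lypd8 was at 818 CPM there against 461 CPM.

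Saa3 was highest in another cluster than Saa1. In ileum replicate 1 Saa1 was at 32.2 CPM in cluster 13 and Saa3 at 75.0 CPM in cluster 6. Pigr stood at 876 and 424 CPM in the stem/progenitor-like cells of ileum replicates 1 and 2, against 1003 and 661 CPM in the jejunum. Mt2 in stem/progenitor-like cells was at 279.6 and 163 CPM in replicate 1 of the ileum and jejunum and at 886 and 1009 CPM in replicate 2, the same direction as in enterocyte-like cells.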
